A study of Mus musculus with 12 samples.

Results

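RNA from U2OS cells transfected with siSRSF1-2, a small interfering RNA against the splicing factor SRSF1, was compared with RNA from blank U2OS cells across all genes. U2OS is a human osteosarcoma line. The comparison holds 6 of the 12 samples of the series, 3 labelled siSRSF1-2 and 3 labelled blank. Samples were assigned by these labels, but the comparison was chosen with earlier results of these data known. The other samples are 3 libraries of cells transfected with siSRSF1-3, a second siRNA against the same gene, and 3 libraries with overexpression of LINC01134, a long non-coding RNA. The labels describe the blank cells only as blank and give no siRNA dose or time. No library transfected with a control siRNA was analysed here, so an effect of transfection and an effect of losing SRSF1 cannot be told apart in any difference below. The labels name the organism as mouse, while the genes carry human Ensembl identifiers, and the libraries were read as human.

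SRSF1, also called ASF/SF2, belongs to the SR proteins, which bind exonic enhancers and help the spliceosome to choose splice sites. It also acts in mRNA export, translation and nonsense-mediated decay, and it is known as a proto-oncogene. The deposited table gives 1 value per gene, so changes in splicing were not visible in it. Coding and non-coding genes are described apart. In RNA of a whole culture, fewer cells of a type and less RNA per cell cannot be told apart.

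Expression was given as FPKM (fragments per kilobase of gene, scaled to library size by the authors) for 58735 genes. Between 26237763 and 32954539 reads fell on genes in the 6 libraries. The siSRSF1-2 libraries lay close together. Their median absolute log2 difference between pairs was 0.0851 to 0.0942, and the chi-square of the recovered reads averaged 2.71 to 3.39 per gene, where counting error alone gives about 1. They were therefore kept as 3 samples, although the labels do not say that they came from separate cultures and p-values may measure technical spread only. Blank replicates 2 and 3 were as close (0.0876), whereas blank replicate 1 differed from them by 0.339 and 0.338. Its nearest library was LINC01134 overexpression replicate 2, at 0.260. The median SD of a gene on the log2 scale was 0.0771 with siSRSF1-2, 0.223 in blank cells and 0.395 with siSRSF1-3. For protein-coding genes these medians were 0.0576, 0.181 and 0.323, and for non-coding genes 0.247, 0.391 and 0.727. Because blank replicate 1 stood apart, leading counts are also given without it. The authors' scaling was uneven across the series. Relative to a library's own reads on genes, the total used as divisor was 0.99 to 1.085 in the 6 compared libraries. It was 0.712, 0.888 and 1.061 in siSRSF1-3 replicates 1, 2 and 3. This raises the FPKM of siSRSF1-3 replicates 1 and 2, and their values are set beside blank values below without correction.

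The cells were checked against markers of the bone and mesenchymal lineage. Of 15 such markers, 9 reached 1 FPKM in at least 1 of the 6 libraries and 3 stayed below 0.1 FPKM in all of them. The summed level was 329 to 444 FPKM in blank cells and 172 to 177 FPKM with siSRSF1-2. Epithelial markers summed to 4.41 to 5.66 FPKM in blank cells and 4.43 to 5.45 FPKM with siSRSF1-2. Blood markers summed to 6.16 to 7.99 and 12.5 to 15.9 FPKM, with 1 of 6 markers reaching 1 FPKM, and endothelial markers stayed under 1 FPKM in every library.

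SRSF1 (ENSG00000136450), listed on chromosome 17 from 58003360 to 58007346, was the targeted gene. Its FPKM was 35.9, 19.8 and 20.5 in the blank libraries and 7.09, 7.46 and 7.41 with siSRSF1-2. Every siSRSF1-2 library lay below every blank library, with blank replicate 1 the highest. The mean was 25.4 ± 9.14 (SD, n = 3) in blank cells and 7.32 ± 0.202 (SD, n = 3) with siSRSF1-2. The log2 fold change was -1.72 (SE 0.23, limma adjusted p = 0.00500). The exact two-sided permutation test gave p = 0.1, the smallest that 3 libraries against 3 allow. Without blank replicate 1 the log2 fold change was -1.45. SRSF1 was the only one of 13 tested SR splicing factors to pass the threshold, and the median log2 change of these 13 was -0.07. The 17 hnRNP proteins, which often act against SR proteins at splice sites, had a median of -0.31, and limma called 0 of them, with 1 above and 6 below 0 at an unadjusted p under 0.05 and 0 called by limma's voom. Leaving out blank replicate 1, their median was -0.17, with 5 above and 7 below 0 at an unadjusted limma p under 0.05. HNRNPC, the member with the smallest p, had 86.04, 75.6 and 74.9 FPKM in blank cells and 60.3, 58.02 and 59.7 with siSRSF1-2 (log2 fold change -0.41). Of 7 tested genes whose splicing is known from other work to depend on SRSF1, limma called 0 (2 above and 3 below 0 at an unadjusted p under 0.05, 0 by voom). Among them RPS6KB1, the S6 kinase of the mTOR pathway, had a log2 fold change of 0.69, from 6.90 ± 0.987 to 11.1 ± 0.368 FPKM (SD, n = 3).

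Of the genes that the study discusses by name, SCAT1 was not matched in the table. RNMT, the mRNA cap methyltransferase, had 21.6, 20.8 and 20.9 FPKM in blank cells and 33.9, 34.99 and 35.1 with siSRSF1-2, a log2 fold change of 0.72 (limma adjusted p = 0.00121) that stayed under the fold limit. SRRM2, a scaffold of the spliceosome and of nuclear speckles, had 45.9 ± 7.28 and 69.9 ± 1.39 FPKM (SD, n = 3), that is 0.62 higher on the log2 scale (limma adjusted p = 0.0125). The log2 fold changes of DMKN, FIP1L1 and FANCI were 0.39, 0.16 and -0.33, with limma adjusted p of 0.168, 0.162 and 0.122. LINC01134, the RNA overexpressed in the other libraries, had 0.791, 0.519 and 0.497 FPKM in blank cells and 0.728, 0.633 and 0.548 with siSRSF1-2, and these ranges overlapped.

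With siSRSF1-2, protein-coding genes passed the threshold more often downward and non-coding genes more often upward. A gene was called where limma's adjusted p was under 0.05 and the absolute log2 fold change, on the log2(FPKM + 0.1) scale, was over 1, which is 2-fold. Of 17538 genes tested, 389 were higher (2.22%) and 479 lower (2.73%). Of 12270 protein-coding genes, 138 were higher (1.12%) and 357 lower (2.91%). Of 5251 non-coding genes, 251 were higher (4.78%) and 121 lower (2.30%). The median log2 fold change was -0.01 over the coding genes and 0.10 over the non-coding genes, with 0.02 over all. Reads on coding genes that were called lower made up 2.42% to 2.64% of a blank library and 0.982% to 0.994% of a siSRSF1-2 library. Reads on non-coding genes that were called higher made up 0.0790% to 0.118% of a blank library and 0.302% to 0.313% of a siSRSF1-2 library. The genes were called in these same libraries, so the direction of both shares was fixed in advance and they give size only.

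**Figure D1:**
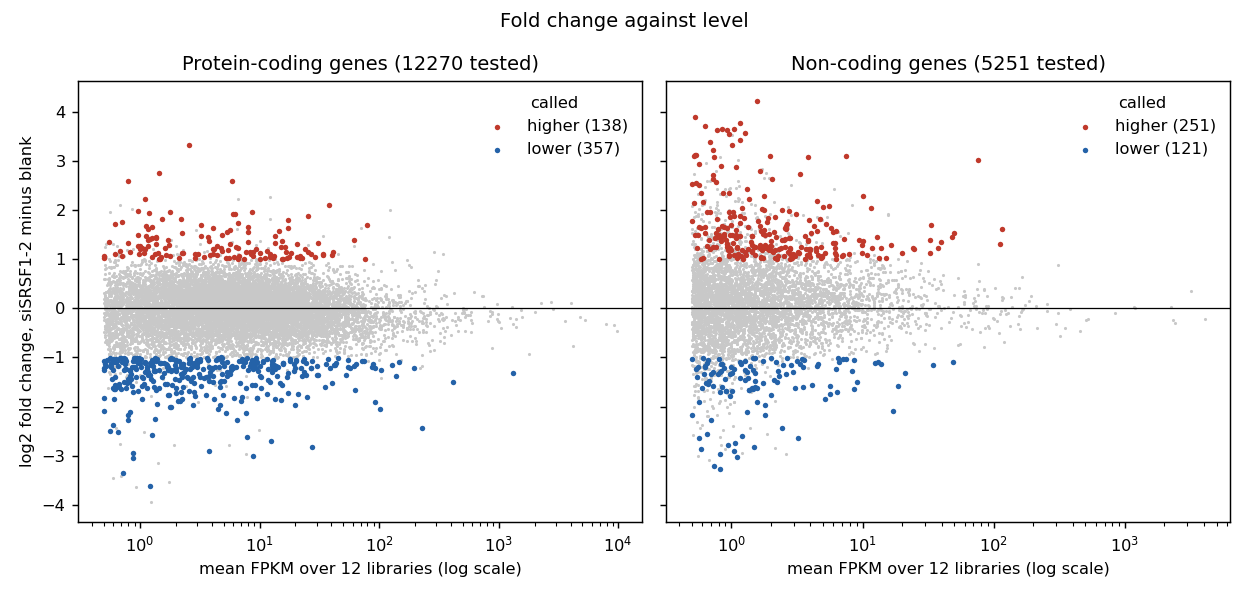
Log2 fold change of siSRSF1-2 against blank cells (y axis) against mean FPKM over the 12 libraries (x axis, log scale), for protein-coding genes (left) and non-coding genes (right), each point a gene. Called genes are in colour: 138 higher and 357 lower among coding genes, 251 higher and 121 lower among non-coding genes.

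These counts depended on the scaling and on the libraries. When each library's FPKM was set to an equal sum, the median over all genes moved from 0.02 to 0.15 on the log2 scale, and the calls became 246 higher and 249 lower among coding genes and 358 higher and 90 lower among non-coding genes. The share of higher genes among all calls was 44.8% in the deposited scaling and 63.98% in that one. For coding calls this share moved from 27.9% to 49.7%, and for non-coding calls from 67.5% to 79.9%. Without blank replicate 1, 422 coding genes were lower and 24.5% of the coding calls were higher, and 394 non-coding genes were higher and 233 lower. Of the calls above, 101 of 138 and 275 of 357 for coding genes were also made without that library. For non-coding genes these were 224 of 251 and 106 of 121. Each of the 868 called genes kept its direction, but in all 868 the 3 and 3 values did not overlap, so none could turn over. Without siSRSF1-2 replicate 1, 2 or 3, non-coding genes called higher numbered 142, 125 and 112, and those called lower 74, 84 and 78. Coding genes called higher numbered 111, 98 and 89. When the siSRSF1-2 libraries were averaged and counted as 1 sample, limma called 0 genes, while by unadjusted p under 0.05 and the fold limit 294 were higher and 409 lower, so every call of a single gene below rests on counting them as 3 samples.

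The 8 largest falls among protein-coding calls with at least 50 reads were those of CA12, STC1, PDLIM1, TMSB15A, TGFBI, SAA1, PLAU and MT1X. CA12, a carbonic anhydrase of the plasma membrane, had 1.74, 5.05 and 5.17 FPKM in blank cells and 0.219, 0.199 and 0.189 with siSRSF1-2, a log2 fold change of -3.61 (SE 0.43, limma adjusted p = 0.00361). Its level in the LINC01134 libraries was 0.0849, 1.35 and 0.0813 FPKM, also below every blank library. STC1, which encodes the secreted hormone stanniocalcin 1, had 0.374, 4.03 and 3.50 FPKM in blank cells and 0.0839, 0.122 and 0.0612 with siSRSF1-2 (log2 fold change -3.35, limma adjusted p = 0.0330). The groups did not overlap, but blank replicate 1 lay nearer to the siSRSF1-2 libraries than to the other blank libraries, and voom did not call this gene (adjusted p = 0.124). TGFBI, an extracellular matrix protein induced by TGF-beta, had 6.01, 12.2 and 12.02 FPKM in blank cells and 1.19, 1.18 and 1.18 with siSRSF1-2 (log2 fold change -2.91). PLAU, the urokinase plasminogen activator, had 30.01, 33.3 and 34.1 FPKM in blank cells and 4.82, 4.68 and 5.23 with siSRSF1-2. Its log2 fold change was -2.70 (SE 0.08, limma adjusted p = 2.93e-04), and its 3 blank values lay close together. The same gene had 1.98, 13.6 and 1.66 FPKM in the LINC01134 libraries and 5.90, 8.12 and 5.84 with siSRSF1-3.

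SAA1, which encodes an acute-phase serum amyloid A protein, had 92.1, 34.2 and 31.7 FPKM in blank cells and 5.73, 6.55 and 7.16 with siSRSF1-2 (log2 fold change -2.83). Here blank replicate 1 was the highest library, and without it the log2 fold change was -2.33. PDLIM1 and TMSB15A act on the cytoskeleton inside the cell. TMSB15A, a thymosin that binds actin monomers, had 13.8, 12.5 and 12.7 FPKM in blank cells and 1.98, 1.19 and 1.48 with siSRSF1-2 (log2 fold change -3.01, SE 0.18, limma adjusted p = 9.02e-04). PDLIM1, an adaptor of the actin cytoskeleton, had 1.82, 2.51 and 2.65 FPKM in blank cells and 0.140, 0.333 and 0.139 with siSRSF1-2 (log2 fold change -3.04).

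The metallothioneins, small proteins that bind zinc and copper, form a group that was picked out after its values were seen. All 3 of its members that were tested fell. MT1X had 9.72, 20.7 and 20.5 FPKM in blank cells and 2.57, 2.22 and 2.77 with siSRSF1-2 (log2 fold change -2.63). MT1E had 314, 374 and 393 FPKM in blank cells and 71.5, 62.6 and 65.7 with siSRSF1-2 (log2 fold change -2.43, limma adjusted p = 4.90e-04). MT2A, the most abundant of them, had 1604 ± 279 FPKM in blank cells and 636 ± 19.3 with siSRSF1-2 (SD, n = 3), the largest fall in FPKM among the called genes. With siSRSF1-3 the levels of MT2A were 4560.2, 2086 and 862 FPKM, which overlapped the blank values. Metallothionein genes are near-identical copies of each other, so the split of reads between them is uncertain.

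Other abundant genes also fell. KRT81, a hair keratin, had 481, 341 and 320.1 FPKM in blank cells and 138, 128 and 129 with siSRSF1-2 (log2 fold change -1.51), and 747, 477 and 217 with siSRSF1-3. KRT81 overlaps the related KRT86 in the file's coordinates, so reads of both may be mixed. LDHA, which reduces pyruvate to lactate, had 216, 157 and 167 FPKM in blank cells and 43.97, 41.96 and 43.04 with siSRSF1-2, a log2 fold change of -2.05 (SE 0.12, limma adjusted p = 9.25e-04). CALR, a calcium-binding chaperone of the endoplasmic reticulum, had 285 ± 42.4 FPKM in blank cells and 121 ± 2.87 with siSRSF1-2 (SD, n = 3; log2 fold change -1.22).

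Among the protein-coding genes that rose, ANGPT2 had the largest fold change. It encodes angiopoietin 2, a ligand of the endothelial receptor TIE2, and its FPKM was 0.496, 0.364 and 0.388 in blank cells and 5.37, 4.94 and 4.80 with siSRSF1-2. The log2 fold change was 3.32 (SE 0.14, limma adjusted p = 4.90e-04). Its level was 2.07, 2.41 and 2.73 FPKM with siSRSF1-3 and 2.67, 2.06 and 2.59 FPKM in the LINC01134 libraries, between the blank and the siSRSF1-2 values. AGXT, a peroxisomal aminotransferase of glyoxylate metabolism, had 0.0405, 0.426 and 0.439 FPKM in blank cells and 1.97, 2.22 and 2.39 with siSRSF1-2 (log2 fold change 2.74). IGFN1, an immunoglobulin-like protein of muscle, had 0.855, 2.68 and 2.59 FPKM in blank cells and 10.8, 11.4 and 12.2 with siSRSF1-2 (log2 fold change 2.59). In both genes blank replicate 1 was the lowest of the 6 compared libraries, and without it the log2 fold changes were 2.10 and 2.08. GPR137B, a lysosomal membrane protein, had 13.1, 18.8 and 20.1 FPKM in blank cells and 70.7, 75.6 and 75.5 with siSRSF1-2 (log2 fold change 2.11, SE 0.16, limma adjusted p = 0.00130). The siSRSF1-3 libraries had 39.9, 46.6 and 44.8 FPKM of it, above every blank library, and the LINC01134 libraries 17.2, 17.7 and 17.7, within the blank range.

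FBXW10 and CDRT1, both on chromosome 17 and related in sequence, rose by log2 fold changes of 2.22 and 1.97. FBXW10 had 0.329, 0.393 and 0.299 FPKM in blank cells and 1.93, 2.00 and 1.89 with siSRSF1-2. CDRT1 had 0.253, 0.213 and 0.385 FPKM in blank cells and 1.32, 1.52 and 1.30 with siSRSF1-2, and reads may be shared between these copies. TBC1D10C, an inhibitor of calcineurin and Ras signaling in lymphocytes, had 0.246, 1.28 and 1.03 FPKM in blank cells and 3.03, 2.96 and 3.22 with siSRSF1-2 (log2 fold change 1.96). ZNF554, a zinc finger protein, had 1.33, 4.63 and 4.27 FPKM in blank cells and 11.7, 12.8 and 11.2 with siSRSF1-2 (log2 fold change 1.95). For both, the blank libraries spread widely but none reached the siSRSF1-2 values. Leaving out blank replicate 1, their log2 fold changes were 1.35 and 1.40.

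The largest gains in FPKM among called coding genes were those of TRIML2, GPR137B, RHOB, OGT and IGF2R. TRIML2, of the tripartite motif family, had 21.2, 60.2 and 61.02 FPKM in blank cells and 138, 141 and 139 with siSRSF1-2 (log2 fold change 1.70). Without blank replicate 1, its lowest blank library, the log2 fold change was 1.20. RHOB, a small GTPase of endosomes and stress signaling, had 41.4, 31.5 and 29.8 FPKM in blank cells and 87.9, 89.2 and 89.8 with siSRSF1-2 (log2 fold change 1.39, limma adjusted p = 0.00199). The LINC01134 libraries had 85.4, 57.8 and 82.97 FPKM of RHOB, also above every blank library. OGT, which attaches N-acetylglucosamine to nuclear and cytosolic proteins, had 41.2, 56.03 and 55.2 FPKM in blank cells and 98.9, 101 and 104 with siSRSF1-2. Its log2 fold change of 1.01 lay at the limit, and it was 0.86 without blank replicate 1. In the LINC01134 libraries OGT had 94.9, 49.1 and 97.99 FPKM. IGF2R, which clears IGF2 and sorts lysosomal enzymes, had 26.8, 30.96 and 30.3 FPKM in blank cells and 63.1, 65.1 and 66.5 with siSRSF1-2 (log2 fold change 1.15, SE 0.07, limma adjusted p = 9.51e-04). With siSRSF1-3, IGF2R had 14.3, 22.6 and 46.6 FPKM, on both sides of the blank values.

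**Figure D2:**
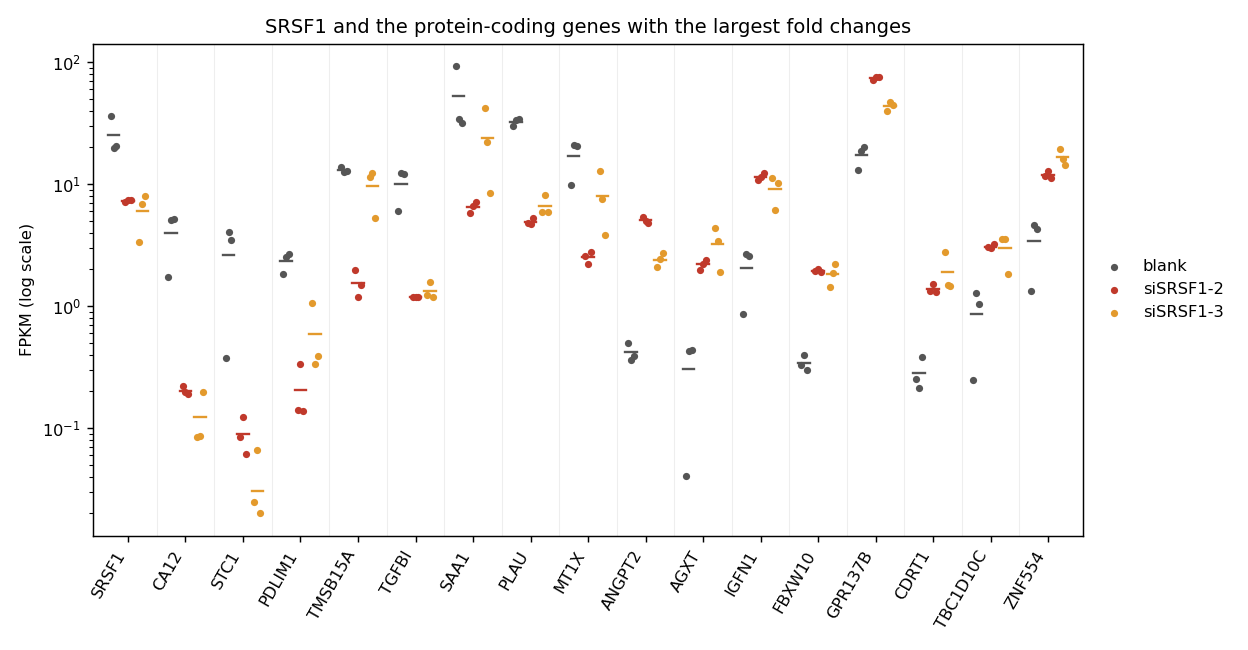
FPKM (y axis, log scale) of SRSF1, of the 8 protein-coding genes with the largest falls and of the 8 with the largest rises among calls with at least 50 reads, in each blank, siSRSF1-2 and siSRSF1-3 library. Points are libraries, bars are group means and a value of 0 is drawn at 0.02; the siSRSF1-2 points of a gene lie closer together than its blank points in most genes, as for PLAU at 4.68 to 5.23.

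Genes of the extracellular matrix and of its turnover leaned downward. The gene lists were chosen with earlier results of these data known, so a share above that over all coding genes is no test of a list. Of 43 matrix genes tested, 10 were called lower and 1 higher, against 2.91% lower and 1.12% higher over all coding genes, and the median was -0.74 on the log2 scale against 0.02 over all genes. SMOC1, a calcium-binding matrix protein, had 5.53 ± 0.536 FPKM in blank cells and 1.54 ± 0.0511 with siSRSF1-2 (SD, n = 3; log2 fold change -1.78). TIMP3, an inhibitor of metalloproteinases, had 5.62, 4.56 and 5.16 FPKM in blank cells and 2.30, 2.01 and 2.27 with siSRSF1-2 (log2 fold change -1.18). IGFBP5, which binds insulin-like growth factors in bone matrix, fell from 13.4 ± 1.69 to 5.86 ± 0.309 FPKM (SD, n = 3; log2 fold change -1.18). NID1, which links laminin to collagen IV in basement membranes, went the other way, with 17.8, 11.7 and 11.02 FPKM in blank cells and 47.4, 48.9 and 50.8 with siSRSF1-2 (log2 fold change 1.89, SE 0.18, limma adjusted p = 0.00228). With siSRSF1-3, NID1 had 10.5, 14.2 and 27.5 FPKM. Without blank replicate 1, 12 matrix genes were lower and 1 higher.

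Of 18 tested genes of extracellular proteolysis, 6 were called lower and 1 higher, against 2.91% and 1.12% of all coding genes, and the median was -0.69. Beside PLAU, the tissue plasminogen activator PLAT had 13.8, 14.7 and 16.1 FPKM in blank cells and 3.10, 2.94 and 2.89 with siSRSF1-2 (log2 fold change -2.28, SE 0.08, limma adjusted p = 3.75e-04). The sheddase ADAM19 had 21.7, 21.6 and 20.95 FPKM in blank cells and 5.76, 6.09 and 6.06 with siSRSF1-2 (log2 fold change -1.83, limma adjusted p = 3.44e-04). MMP14, a membrane-bound collagenase, fell from 42.2 ± 5.16 to 16.4 ± 0.596 FPKM (SD, n = 3; log2 fold change -1.35), and its relative MMP15 from 3.81 ± 0.270 to 1.61 ± 0.0554 FPKM (SD, n = 3; log2 fold change -1.19). In none of these genes did the groups overlap, which held for all 868 calls. In the LINC01134 libraries PLAT had 2.76, 11.9 and 3.30 FPKM, ADAM19 2.95, 11.6 and 3.16, and MMP15 0.976, 2.81 and 0.807. All of these lay below every blank library of the same gene. The collagenase MMP1 was not called: it had 2.86, 43.2 and 42.9 FPKM in blank cells and 3.11, 3.11 and 3.02 with siSRSF1-2 (log2 fold change -2.47, limma adjusted p = 0.132), with blank replicate 1 at the siSRSF1-2 level and a log2 fold change of -3.76 without it. When blank replicate 1 was left out, 9 genes of this list were lower and limma called 0 higher, with PLAU, PLAT, ADAM19, MMP14 and MMP15 among those lower.

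Among 20 tested adhesion receptors, 4 were called lower and limma called 0 higher (2 at an unadjusted p under 0.05, 0 by voom), and their median was -0.36 on the log2 scale. Over all coding genes 2.91% were lower, and in this list 3 were lower without blank replicate 1. The proteoglycan SDC1 fell from 24.6 ± 6.55 to 6.52 ± 0.617 FPKM (SD, n = 3; log2 fold change -1.87). The laminin-binding integrin subunits ITGA3 and ITGA6 fell by 1.17 and 1.15 on the log2 scale, and the vitronectin-binding subunit ITGB3 by 1.64. The log2 fold change of ITGA6 was -0.98 without blank replicate 1, under the fold limit. ITGA3 was the most abundant of these, with 94.1, 81.4 and 78.9 FPKM in blank cells and 37.6, 38.3 and 36.8 with siSRSF1-2.

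Growth factors and receptor tyrosine kinases showed no common direction. Of 28 tested, 3 were called higher and 2 lower, against 1.12% and 2.91% of all coding genes, and the median log2 fold change was 0.04. ANGPT2 and IGF2R, given above, and EREG, which encodes the EGFR ligand epiregulin, were the higher ones. EREG had 1.66, 3.48 and 3.83 FPKM in blank cells and 6.01, 6.30 and 6.30 with siSRSF1-2 (log2 fold change 1.11, limma adjusted p = 0.0419), and 0.75 without blank replicate 1. PDGFB, a subunit of platelet-derived growth factor, had 1.45, 4.69 and 4.50 FPKM in blank cells and 0.417, 0.639 and 0.712 with siSRSF1-2 (log2 fold change -2.26). VEGFC, a ligand of lymphatic endothelium, had 7.95, 4.33 and 4.32 FPKM in blank cells and 2.49, 2.50 and 2.49 with siSRSF1-2 (log2 fold change -1.06), and -0.77 without blank replicate 1. The calls of EREG and VEGFC thus rested on that library.

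Genes of cell division leaned downward, by amounts that depended on blank replicate 1. All 30 tested DNA replication genes had log2 fold changes below 0, with a median of -0.56, and 6 were called lower, against 2.91% of all coding genes. Leaving out blank replicate 1, the median was -0.30 and 2 were called. PRIM1, the catalytic subunit of the primase, had 13.03, 10.5 and 11.4 FPKM in blank cells and 4.04, 3.67 and 3.83 with siSRSF1-2, a log2 fold change of -1.57 (SE 0.10, limma adjusted p = 9.51e-04). RRM2, a subunit of ribonucleotide reductase, had 30.2, 23.9 and 25.5 FPKM in blank cells and 12.7, 12.4 and 12.8 with siSRSF1-2 (log2 fold change -1.05, or -0.96 without blank replicate 1). The origin licensing factors CDT1 and CDC6 and the helicase subunit GINS2 had log2 fold changes of -1.27, -1.15 and -1.09, and of -1.02, -0.90 and -0.82 without blank replicate 1. Blank replicate 1 was the highest of the 6 compared libraries for all of these genes, for example with 30.95 FPKM of CDT1 against 18.4 and 18.3 in the other blank libraries. With siSRSF1-3, PRIM1, RRM2 and CDC6 lay below every blank library. CDT1 had 30.9, 21.4 and 12.98 FPKM with siSRSF1-3 and GINS2 had 19.3, 12.9 and 7.32, and both overlapped their blank values.

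Of 26 tested mitosis genes, 2 were called lower and limma called 0 higher (0 at an unadjusted p under 0.05 and 0 by voom), with a median of -0.47. Over all coding genes 2.91% were called lower. CDC20, an activator of the anaphase-promoting complex, had 130.1, 67.8 and 68.5 FPKM in blank cells and 42.8, 39.4 and 39.1 with siSRSF1-2 (log2 fold change -1.06). PTTG1, or securin, had 67.6, 51.6 and 51.6 FPKM in blank cells and 29.1, 26.6 and 26.02 with siSRSF1-2 (log2 fold change -1.05). With siSRSF1-3, CDC20 had 85.5, 66.7 and 47.4 FPKM, which overlapped the blank values. PTTG1 had 135, 80.2 and 37.8 FPKM with siSRSF1-3, on both sides of the blank values. When blank replicate 1 was left out, limma called 0 mitosis genes. Taking limma's p without adjustment, below 0.05, 19 of them then fell and 6 rose, against 16 and 0 with every library. Of 20 tested G1 cyclins, CDKs and CDK inhibitors, 2 were called lower. CCND1, cyclin D1, had 40.5, 29.8 and 29.7 FPKM in blank cells and 10.99, 10.8 and 11.8 with siSRSF1-2 (log2 fold change -1.55, SE 0.13, limma adjusted p = 0.00168). Its levels were 5.47, 5.57 and 6.76 FPKM with siSRSF1-3 and 8.29, 17.6 and 8.64 FPKM with LINC01134, and every one of these lay below every blank library. CCNE2, cyclin E2, fell from 1.36 ± 0.757 to 0.353 ± 0.0409 FPKM (SD, n = 3; log2 fold change -1.58).

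Of 29 tested glycolysis and hypoxia genes, 5 were called lower, against 2.91% of all coding genes, and limma called 0 higher (1 at an unadjusted p under 0.05, 0 by voom), and the median was -0.77. Beside LDHA and CA12, PGK1, phosphoglycerate kinase 1, had 114, 157 and 163 FPKM in blank cells and 62.4, 62.2 and 61.8 with siSRSF1-2 (log2 fold change -1.20, limma adjusted p = 0.00341). PFKFB4, which sets the level of fructose 2,6-bisphosphate, had 2.11, 7.02 and 6.79 FPKM in blank cells and 1.52, 1.41 and 1.17 with siSRSF1-2 (log2 fold change -1.71). PFKFB4 was not called by voom (voom adjusted p = 0.0670). LDHB, the other main lactate dehydrogenase subunit, fell from 34.7 ± 5.80 to 15.4 ± 0.699 FPKM (SD, n = 3; log2 fold change -1.16), and had 174, 72.4 and 25.7 FPKM with siSRSF1-3. Leaving out blank replicate 1, 12 genes of this list were called lower.

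Stress responses were read from lists of their targets. Of 28 tested targets of ATF4 and of the unfolded protein response, 2 were called lower, the endoplasmic reticulum chaperones CALR and PDIA4 (log2 fold change -1.37), and the median was 0.02. Among 29 tested interferon-stimulated genes, 1 was called higher and 2 lower, against 1.12% and 2.91% of all coding genes, with a median of -0.28. OAS1, which senses double-stranded RNA, had 1.42, 0.882 and 0.983 FPKM in blank cells and 0.408, 0.479 and 0.382 with siSRSF1-2 (log2 fold change -1.17). The ubiquitin-like modifier ISG15 fell from 20.7 ± 1.40 to 10.1 ± 0.616 FPKM (SD, n = 3; log2 fold change -1.02), while the transcription factor IRF7 rose from 0.331 ± 0.0456 to 0.801 ± 0.0317 FPKM (SD, n = 3; log2 fold change 1.07). The log2 fold change of OAS1 was -0.98 without blank replicate 1.

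No gene of the cholesterol, p53 or BCL2 family lists was called. For 27 cholesterol synthesis genes limma called 0, with 2 above and 15 below 0 at an unadjusted p under 0.05, and the median was -0.42. Leaving out blank replicate 1, the median was -0.22, with 5 above and 19 below 0 at an unadjusted limma p under 0.05. MVD, mevalonate diphosphate decarboxylase, had 21.6, 21.6 and 20.2 FPKM in blank cells and 13.1, 13.8 and 13.3 with siSRSF1-2 (log2 fold change -0.66, limma adjusted p = 0.00199). For 25 p53 targets limma called 0, with 3 above and 7 below 0 at an unadjusted p under 0.05, a median of -0.13 and FDXR at a log2 fold change of -0.83. For 15 BCL2 family genes limma called 0, with 2 above and 6 below 0 at an unadjusted p under 0.05, a median of -0.07 and BOK at -0.37. Voom called 0 genes of these lists, and without blank replicate 1 limma called 1 BCL2 family gene lower.

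**Figure D3:**
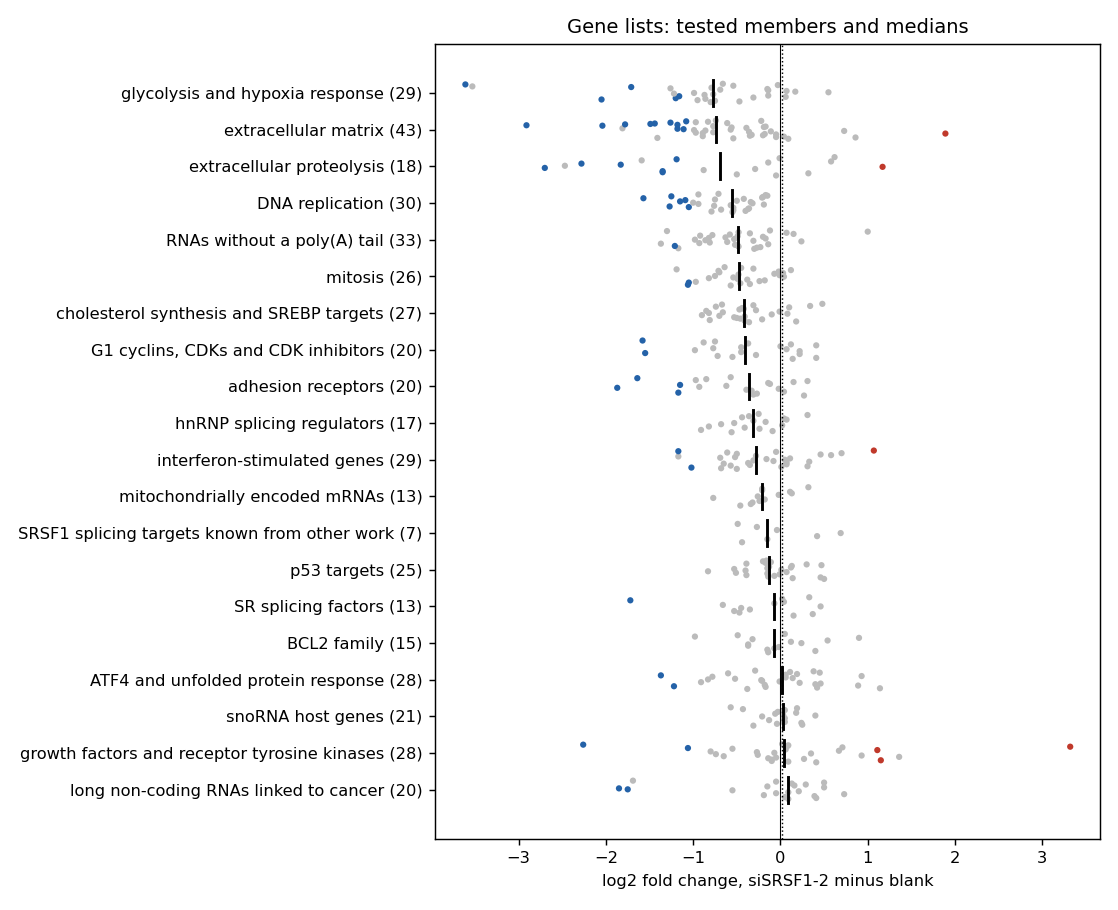
Log2 fold change of siSRSF1-2 against blank cells (x axis) for the tested members of 20 gene lists, with the number tested in brackets. Points are genes, blue called lower, red called higher and grey not called; black bars are list medians, from -0.77 for glycolysis and hypoxia genes to 0.09 for long non-coding RNAs linked to cancer, and the dotted line is the median of all genes at 0.02.

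Non-coding genes were called higher more often than lower in each of their classes, to different degrees. Of 2879 long non-coding RNAs tested, 120 were called higher (4.17%) and 86 lower (2.99%). Of 1529 pseudogenes, 69 were higher (4.51%) and 13 lower (0.850%). Of 727 short RNAs, 55 were higher (7.57%) and 18 lower (2.48%). The median log2 fold change was 0.02, 0.18 and 0.40 in these classes. The remaining class, 116 genes of the unconfirmed biotype TEC, had 7 higher (6.03%) and 4 lower (3.45%), with a median of 0.17. Within the long non-coding RNAs, antisense genes were called higher in 50 and lower in 19 of 1222, and lincRNAs higher in 51 and lower in 59 of 1205. When blank replicate 1 was left out, long non-coding RNAs were called higher in 153 and lower in 177 cases, so their balance turned over, while pseudogenes (112 and 27) and short RNAs (117 and 25) stayed mostly higher. The short RNA calls rest on few reads, since only 5 of the 55 higher and 2 of the 18 lower had a mean of 50 reads in the higher group. Of the 251 non-coding genes called higher, 39 had at most 3 reads in every blank library, and their fitted fold changes depend on the pseudocount. Among the calls with a mean of at least 50 reads in the higher group, 132 non-coding ones were higher and 57 lower, against 134 and 351 for coding genes.

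Non-coding genes have lower levels than coding genes, with a median mean FPKM of 1.33 against 6.47 among those tested, so the calls were also counted within bands of level. At a mean FPKM of 0.5 to 1, 1.48% of coding genes were higher and 7.04% lower, and 3.57% of non-coding genes were higher and 2.09% lower. At 5 to 20 FPKM, 1.01% of coding genes were higher and 1.81% lower, and 4.85% of non-coding genes were higher and 2.91% lower. In each of the 5 bands coding genes were called lower more often and non-coding genes higher more often. With FPKM rescaled to the same sum, the coding calls were balanced, as given above.

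**Figure D4:**
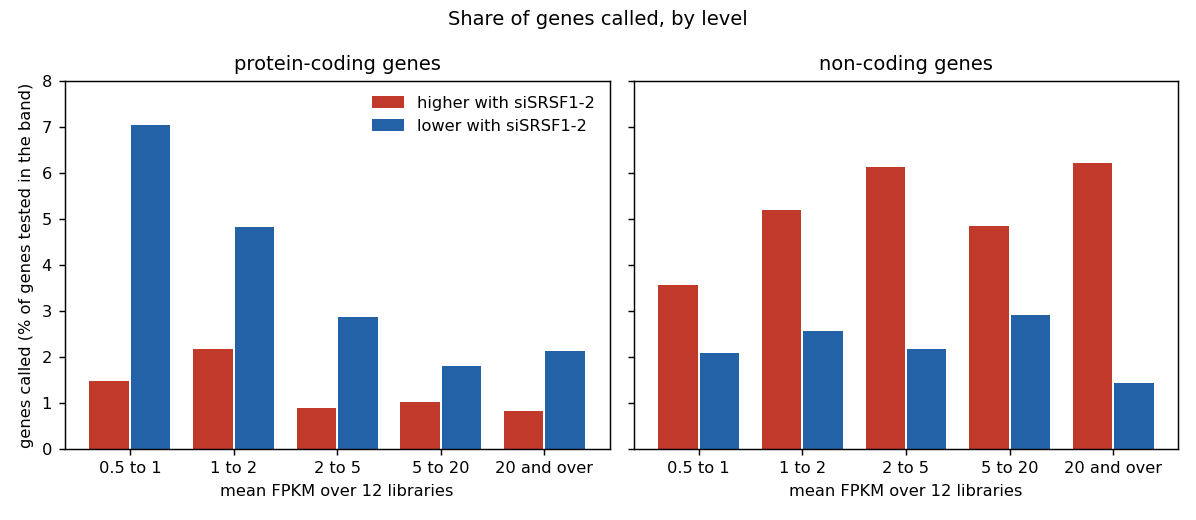
Share of tested genes called higher (red) or lower (blue) with siSRSF1-2, in percent (y axis), in 5 bands of mean FPKM over the 12 libraries (x axis), for protein-coding genes (left) and non-coding genes (right). Blue bars exceed red in each coding band, as with 7.04% and 1.48% at 0.5 to 1 FPKM, and red bars exceed blue in each non-coding band.

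Many non-coding genes lie over a coding gene, and the sources used here do not state whether reads were counted by strand. Of the 5251 non-coding genes tested, 2747 (52.3%) overlapped a protein-coding gene in the file's coordinates, as did 147 (58.6%) of those called higher and 52 (42.98%) of those called lower. The overlapped coding genes had a median log2 fold change of 0.37 under the higher non-coding genes, -0.15 under the lower ones and 0.08 under all. In 18 of the 147 cases the coding gene was itself called higher, against 46 of the 2747 over all tested and 2 of the 52 under the lower ones. Reads of such pairs cannot be told apart without strand.

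The lincRNA ENSG00000285722 has no name in the file and is listed on chromosome 22 from 49372924 to 49377119. It had 15.8, 14.4 and 15.7 FPKM in blank cells and 120.2, 127 and 129.8 with siSRSF1-2, a log2 fold change of 3.03 (SE 0.06) with the smallest limma adjusted p of all genes (7.32e-05). The siSRSF1-3 libraries had 178, 129.5 and 98.3 FPKM, all above every blank library, and the LINC01134 libraries 32.5, 23.7 and 31.4. It overlapped no protein-coding gene. DIRC3, a lincRNA first found at a renal carcinoma breakpoint, had 0.449, 1.19 and 1.36 FPKM in blank cells and 8.14, 8.35 and 8.66 with siSRSF1-2, a log2 fold change of 3.07 (SE 0.37, limma adjusted p = 0.00367). It had 5.05, 6.32 and 5.81 FPKM with siSRSF1-3, and 0.229, 0.180 and 0.142 FPKM with LINC01134, below every blank library.

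MCPH1-AS1 had 1.10, 1.64 and 1.28 FPKM in blank cells and 5.48, 5.49 and 5.49 with siSRSF1-2 (log2 fold change 1.97, SE 0.15, limma adjusted p = 0.00121). It is antisense to MCPH1, a gene of chromosome condensation whose log2 fold change was 0.50, and ANGPT2 lies within the same coding gene on the same strand as MCPH1-AS1. A pair of neighbouring lincRNAs on chromosome 7 rose together. ENSG00000236453, from 94022833 to 94066661, had 26.9, 77.7 and 81.9 FPKM in blank cells and 168, 166 and 179 with siSRSF1-2 (log2 fold change 1.62), or 1.10 without blank replicate 1. ENSG00000236938, from 94071759 to 94077157, had 0.972, 0.631 and 1.58 FPKM in blank cells and 4.45, 4.10 and 4.24 with siSRSF1-2 (log2 fold change 1.99). The antisense gene ENSG00000240710 on chromosome 1 rose from 0.816 ± 0.249 to 3.49 ± 0.695 FPKM (SD, n = 3; log2 fold change 2.00).

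Among the long non-coding RNAs that fell, ENSG00000242147, on chromosome 10, fell by 3.03 on the log2 scale, from 1.81, 2.93 and 3.55 FPKM in the blank libraries. ENSG00000269729, on chromosome 19, fell from 2.00 ± 0.206 to 0.210 ± 0.174 FPKM (SD, n = 3; log2 fold change -2.90). Both rest on few reads, with means of 5.67 and 5.33 per siSRSF1-2 library. COL5A1-AS1, antisense to the collagen gene COL5A1, had 5.80, 7.75 and 7.83 FPKM in blank cells and 1.14, 0.806 and 1.26 with siSRSF1-2 (log2 fold change -2.64, SE 0.20, limma adjusted p = 0.00121). COL5A1 itself had a log2 fold change of -0.39 (limma adjusted p = 0.195). ENSG00000266088, on chromosome 17, fell from 5.44 ± 1.68 to 0.896 ± 0.140 FPKM, and ENSG00000249199, on chromosome 5, from 30.7 ± 2.73 to 7.16 ± 0.941 FPKM (SD, n = 3; log2 fold changes -2.44 and -2.09).

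The higher pseudogenes with the largest fold changes were ENSG00000283421, a relic of an ABC transporter gene on chromosome 16, with 2.00, 2.11 and 2.11 FPKM in blank cells and 10.3, 9.67 and 9.36 with siSRSF1-2 (log2 fold change 2.18, SE 0.07, limma adjusted p = 3.60e-04), and ANKRD20A5P. ANKRD20A5P had 1.48, 2.51 and 2.41 FPKM in blank cells, 9.01, 8.52 and 9.61 with siSRSF1-2 (log2 fold change 2.07) and 2.28, 2.96 and 8.29 with siSRSF1-3. The lower pseudogenes with the largest fold changes were RPL29P19, a copy of a ribosomal protein gene (log2 fold change -1.64), and MYH16, a myosin gene that is inactive in humans (log2 fold change -1.63). MYH16 had 3.33, 2.52 and 2.47 FPKM in blank cells and 0.834, 0.800 and 0.827 with siSRSF1-2. TMSB4XP8, a copy of a thymosin gene, fell from 55.6 ± 6.27 to 25.01 ± 2.96 FPKM (SD, n = 3; log2 fold change -1.15). Reads of processed copies can come from the parent gene, so the values of RPL29P19 and TMSB4XP8 are uncertain.

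Short RNAs were measured in libraries of long RNA fragments, where reads on a short gene can come from a longer transcript. MT-TY, the mitochondrial tRNA of tyrosine, had 84.3, 77.8 and 75.97 FPKM in blank cells and 203, 189.8 and 199 with siSRSF1-2 (log2 fold change 1.31, SE 0.06, limma adjusted p = 6.82e-04), from a mean of 155 and 407 reads. The mitochondrial mRNAs did not share this direction: limma called 0 of 13, with 1 above and 4 below 0 at an unadjusted p under 0.05, 0 by voom and a median of -0.21. Leaving out blank replicate 1, their median was -0.09, with 2 above and 5 below 0 at an unadjusted limma p under 0.05. MT-CO2, the member with the smallest p, had a log2 fold change of -0.46. The unnamed short RNA ENSG00000199332, on chromosome 6, rose from 4.28 ± 1.98 to 20.2 ± 2.82 FPKM (SD, n = 3; log2 fold change 2.29). The microRNA genes MIR589 and MIR4477B fell by 1.14 and 1.09 on the log2 scale, MIR589 from 22.3 ± 4.64 to 9.97 ± 0.760 FPKM and MIR4477B from 70.6 ± 9.58 to 33.1 ± 3.38 FPKM (SD, n = 3). Their listed lengths are 99 and 81 bases, so the values are those of precursor or host transcripts and not of mature microRNAs.

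**Figure D5:**
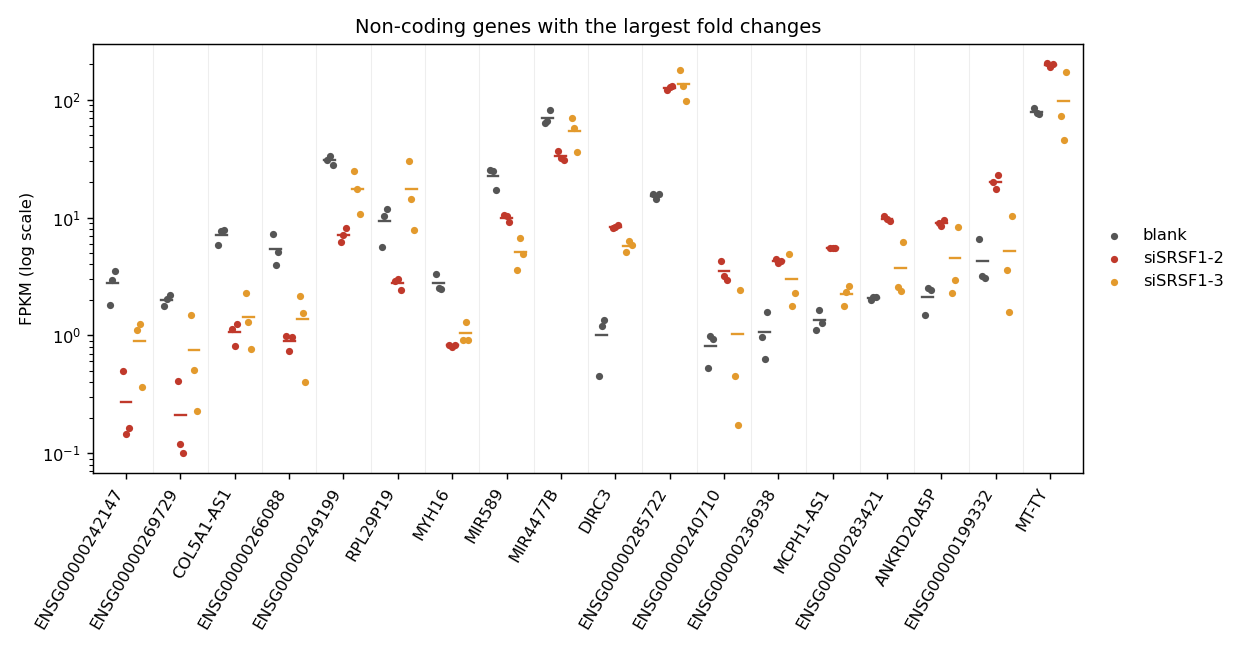
FPKM (y axis, log scale) of the long non-coding RNAs, pseudogenes and short RNAs with the largest falls (left) and rises (right) among calls with at least 50 reads, in each blank, siSRSF1-2 and siSRSF1-3 library. Points are libraries and bars are group means; ENSG00000285722 sits at 14.4 to 15.8 in blank cells and at 98.3 to 178 in the siRNA libraries.

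Of 20 tested long non-coding RNAs linked to cancer, 2 were called lower and limma called 0 higher (5 at an unadjusted p under 0.05, 0 by voom), with a median of 0.09. Over all long non-coding RNAs 4.17% were higher and 2.99% lower. UCA1, a lincRNA of urothelial and other carcinomas, had 10.4, 13.6 and 13.2 FPKM in blank cells and 3.54, 3.49 and 3.80 with siSRSF1-2 (log2 fold change -1.75, SE 0.12, limma adjusted p = 0.00105). NKILA, an RNA that binds NF-kappaB, had 8.77, 10.7 and 11.3 FPKM in blank cells and 2.77, 2.44 and 3.10 with siSRSF1-2 (log2 fold change -1.85). NKILA overlaps the coding gene ENSG00000124225 on the other strand (log2 fold change -0.90, limma adjusted p = 0.00166), so their reads may be mixed. With siSRSF1-3, UCA1 had 4.89, 3.64 and 3.69 FPKM and NKILA 2.02, 2.13 and 1.84. The LINC01134 libraries had 2.39, 3.20 and 2.26 FPKM of UCA1 and 4.54, 7.30 and 5.25 of NKILA. Every one of these values lay below every blank library of the same gene. Of 21 snoRNA host genes limma called 0 (0 above and 3 below 0 at an unadjusted p under 0.05, 0 by voom), the median was 0.03, and SNHG14 had a log2 fold change of -0.57. Of 33 tested RNAs without a poly(A) tail, 29 were clustered histone genes. Of the 33, 1 was called lower (3.03%, against 2.73% of all genes). The log2 fold change was below 0 in 29 of the 33, with a median of -0.49. Leaving out blank replicate 1, the median was -0.30, and limma called 1 higher and 0 lower. Taking limma's p without adjustment, below 0.05, 10 of these RNAs then fell and 5 rose, against 10 and 0 with every library. The histone gene HIST1H2BJ had 46.4, 24.9 and 23.6 FPKM in blank cells and 14.1, 12.05 and 12.7 with siSRSF1-2 (log2 fold change -1.21), and -0.90 without blank replicate 1.

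The siRNAs were compared directly, without the blank libraries. Of 17538 genes, limma called 15 (0.0855%) between siSRSF1-3 and siSRSF1-2, 6 higher and 9 lower in siSRSF1-3. At an unadjusted p under 0.05 there were 7390. The siSRSF1-3 libraries did not form a tight group. By median absolute log2 difference, siSRSF1-3 replicate 3 lay 0.243 to 0.262 from the siSRSF1-2 libraries. It lay 0.670 and 0.456 from siSRSF1-3 replicates 1 and 2. The count of 15 is therefore no measure of how alike the siRNAs were. Leaving out siSRSF1-3 replicate 3 gave 2807 higher and 2551 lower, leaving out siSRSF1-3 replicate 1 gave 8 and 13, and leaving out siSRSF1-3 replicate 2 or any siSRSF1-2 library gave 0 calls by limma, with 3605 to 3897 genes at an unadjusted p under 0.05. With a mean FPKM of at least 1 required, 21 were higher and 15 lower, and voom called 0 (7362 at an unadjusted p under 0.05). With each library rescaled to its own read total, the counts were again 6 higher and 9 lower in siSRSF1-3. SRSF1 itself differed by -0.37 on the log2 scale (SE 0.32, limma adjusted p = 0.387).

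The following genes were picked out after their values were seen, as coding genes called both against blank cells and between the siRNAs. ARL6IP1, a protein that shapes the endoplasmic reticulum, had 26.2, 20.5 and 21.2 FPKM in blank cells, 6.80, 6.80 and 6.41 with siSRSF1-2 and 27.01, 29.6 and 24.5 with siSRSF1-3, which lay with or above the blank libraries. STT3A, a catalytic subunit of the oligosaccharyltransferase, had 22.4, 20.4 and 20.4 FPKM in blank cells, 8.36, 8.20 and 8.49 with siSRSF1-2 and 16.97, 16.3 and 17.4 with siSRSF1-3. CMTM8, a membrane protein that restrains EGFR signaling, had 12.1, 11.1 and 11.1 FPKM in blank cells, 5.66, 4.90 and 3.94 with siSRSF1-2 and 20.6, 24.4 and 18.1 with siSRSF1-3, above every blank library. TMSB15A, the thymosin described above, had 11.5, 12.2 and 5.29 FPKM with siSRSF1-3, and its difference between the siRNAs did not pass (log2 fold change 2.50, limma adjusted p = 0.0602).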

How the data were processed

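RNA was measured by sequencing in 12 samples, of which the 3 blank and 3 siSRSF1-2 samples were compared. The authors deposited 1 table of FPKM values per gene, on human Ensembl identifiers. The aligner, the counter and strand use are not given in the sources used here. The labels list a mouse genome build while the identifiers are human, so the build of the coordinates is not known. The labels and the study's methods differ on the library kit, on the number of replicates and on the cell line of the transient transfection. All 12 value columns were mapped by name, with 0 unused, siASF columns being read as SRSF1 knockdown.

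Genes with a mean of at least 0.5 FPKM over the 12 libraries were tested on log2(FPKM + 0.1) with limma 3.58.1 (trend, R 4.3.3), on the 6 libraries alone, with Benjamini-Hochberg adjustment over all genes tested. Python 3.11.15, pandas 2.3.3, numpy 2.4.6 and scipy 1.17.1 were used for the rest. In each library the product of FPKM and gene length came in whole steps, which gave back the reads per gene, and voom was run on these as an alternative. Total reads on genes set the counting error only. Scripts were tested on simulated data.

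Members, gene lists and tests were chosen with earlier results of these data known. Named genes were SRSF1 and the genes the study names; among calls without overlap and with at least 50 reads, the 8 coding, 5 long non-coding, 2 pseudogene and 2 short RNA genes with the largest change each way; the 5 coding and 3 non-coding calls with the largest change in FPKM each way; and up to 5 called members of each list, or else the member with the smallest p. Samples with the same replicate number did not deviate together. Alternatives changed the pseudocount, filter, scaling, variance model, samples, pairing and threshold.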

Additional observations from a re-analysis of the deposited data

Results flagged for a closer look

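A direct limma comparison of the siRNAs set apart 5 genes that were also called against blank cells. ARL6IP1, which shapes the endoplasmic reticulum, was higher with siSRSF1-3 than with siSRSF1-2 by 2.00 on the log2 scale, and the oligosaccharyltransferase subunit STT3A by 1.01 and the membrane protein CMTM8 by 2.10. MIR6769A and RN7SL184P differed by -4.51 and -3.83 on the log2 scale. MIR6769A had 2.38, 2.78 and 1.54 FPKM with siSRSF1-2 and was listed at 0 in every siSRSF1-3 library, and RN7SL184P had 1.17, 1.48 and 1.33 FPKM and was also listed at 0 there. Both rest on few reads, with a mean of 12.3 per siSRSF1-2 library for RN7SL184P and fewer for MIR6769A, so the fitted differences depend on the pseudocount. The limma adjusted p was 0.0317 for ARL6IP1, 0.0491 for STT3A and 0.0375 for the other three.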

How the results depend on the processing

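Counts of calls depended on the setting, and more genes were higher than lower after rescaling to own read total (447 and 426) and by voom (513 and 451). With a pseudocount of 1, 379 genes were called, 177 higher and 202 lower (coding 62 and 161, non-coding 115 and 41). With the fit repeated on genes with at least 50 reads in the higher group, 135 non-coding genes were higher and 60 lower. With FPKM rescaled to the same sum, 604 genes were higher, 246 of them coding. One fit over all 4 groups called 314, 134 higher and 180 lower (coding 76 and 148, non-coding 58 and 32). With no minimum fold, 4702 passed, 2452 higher and 2250 lower (coding 1893 and 1941, non-coding 558 and 308), and by unadjusted p with the fold limit 202 non-coding genes were lower. With the siSRSF1-2 libraries averaged to 1 sample, limma called 0 genes in each class (SRSF1 log2 fold change -1.72, adjusted p = 0.283). With blank 2 and 3 also averaged, an alternative chosen after seeing the data, limma again called 0 (SRSF1 -1.86, adjusted p = 0.791), while by unadjusted p under 0.05 and the fold limit 340 were higher and 451 lower.

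Leaving out 1 library gave 534 to 1188 calls, 201 to 532 higher and 331 to 656 lower. Coding genes ranged from 89 to 158 higher and 254 to 422 lower, non-coding genes from 112 to 394 higher and 74 to 233 lower, and the SRSF1 log2 fold change from -1.88 to -1.45. The highest total came without blank replicate 1 and the lowest without siSRSF1-2 replicate 3. The replicate block gave 300 higher and 381 lower calls, and same-numbered samples had correlations of deviations of -0.02, 0.00 and -0.00, so their numbers do not pair them. The direct comparison of the siRNAs gave 0 to 5358 calls when 1 library was left out, 36 with a mean FPKM of at least 1, and 0 by voom, which was added after seeing the data. Genes with few reads, mainly short RNAs, have the least certain values.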

Other observations

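Protein-coding genes that the deposited table assigns to a transcription factor family had a median above that of all coding genes, in a grouping chosen after the data were seen. Of 1035 tested, 662 had log2 fold changes above 0, with a median of 0.13 against -0.01 over all coding genes, and 12 were called higher and 15 lower (1.16% and 1.45%, against 1.12% and 2.91% of all coding genes). Among 469 tested genes of the zf-C2H2 zinc finger family, 339 lay above 0 and 130 below, the median was 0.18, and 7 were called higher and 5 lower. The Homeobox family went the other way, with 33 above and 49 below 0 and a median of -0.09. Without blank replicate 1 the medians of all families and of zf-C2H2 were 0.13 and 0.18. Of the 22 mitochondrial tRNA genes, 3 were called higher, with a median of 0.49, against 7.57% and a median of 0.40 over all short RNAs.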
